A study of Homo sapiens and Mus musculus with 13 samples.

Results

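The epithelium-specific ETS transcription factors SPDEF, ELF3, ELF5 and EHF were followed in a human breast cancer cell line, and their mouse counterparts Spdef, Elf3, Elf5 and Ehf in mammary tumors. These 8 genes were 4 of the 24523 human gene symbols and 4 of the 55228 mouse gene symbols with RNA-Seq values. SPDEF was chosen by its measured values, because it was much lower in knockdown cell lines than in the Control line, and the other members were chosen by their relation to it. The differences of SPDEF from Control are therefore given as a description, with no test. The selection rule covered the tumor libraries as well, so the tumor p-values given below are not free of the choice of members.

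The study asked how TRIM11, a ubiquitin E3 ligase, and KDM5C, a histone H3K4 demethylase, act in breast cancer, and RNA-Seq was one of its readouts. MDA-MB-231 is an established human cell line of triple-negative breast cancer. It was infected with lentivirus carrying Cas9 and a single guide RNA (sgRNA) and selected with puromycin. The Control line carried an sgRNA to GFP, and with it 2 TRIM11-KD lines, 2 KDM5C-KD lines and 2 double knockdown (DKD) lines were sequenced, 1 library each. TRIM11-KD1 carried TRIM11-sgRNA1 and TRIM11-KD2 carried TRIM11-sgRNA2, while KDM5C-KD1 and KDM5C-KD2 carried KDM5C-sgRNA1 and KDM5C-sgRNA2. Both DKD lines carried KDM5C-sgRNA2, together with TRIM11-sgRNA1 in DKD1 and TRIM11-sgRNA2 in DKD2, so lines of different groups shared guides. The tumors came from 3 Trim11+/+ and 3 Trim11+/- female mice of 3 months. All 6 mice came from FVB/N-Tg (MMTV-PyVT) 634Mul/J crossed to Trim11+/- C57BL/6N. In the former, a mammary tumor virus promoter drives the polyoma middle T oncogene in mammary epithelium. In the Trim11+/- mice 1 copy of Trim11 lacked several exons throughout the body. The labels number the transgenic line differently for each mouse, from 634 to 639, while the methods give 634 alone.

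ETS factors share a DNA-binding domain that recognizes a short GGAA or GGAT core, and SPDEF is known for its preference for GGAT. The members of the epithelium-specific branch are expressed in epithelia and take part in their differentiation. SPDEF drives secretory and goblet cell programs and is found in luminal breast cells, ELF5 drives the milk-producing alveolar lineage of the mammary gland, and ELF3 and EHF act in many glandular epithelia.

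Expression was given in FPKM, fragment numbers divided by the length of the gene and the size of the library, so that levels of different genes can be set side by side. Tumor library totals, inferred from the FPKM values and gene lengths, lay between 8793199 and 11117125 reads. The depth of the cell line libraries is unknown. TRIM11 was not lower in every library labelled as a TRIM11 knockdown. TRIM11 stood at 12.6 FPKM in Control, 13.4 in the library labelled TRIM11-KD1, 16.1 in the library labelled DKD1, 10.6 in TRIM11-KD2 and 9.38 in DKD2. KDM5C was 30.3 FPKM in Control and between 18.8 and 22.7 FPKM in the 4 lines with a KDM5C guide. Cutting by Cas9 need not lower an mRNA, so these values check the labels only in part. Trim11 was lower in each of the Trim11+/- tumors, 23.2 ± 0.660 FPKM (SD, n = 3) against 37.1 ± 1.84 FPKM (SD, n = 3). The hormone receptor genes ESR1 and PGR were near or at 0 in all 7 cell line libraries, while KRT8 was between 375 and 622 FPKM and VIM between 1038 and 1309 FPKM.

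The level of the members differed between the cell line and the tumors. In the Control line SPDEF was 30.3 FPKM, EHF 25.5 FPKM and ELF3 2.11 FPKM, and ELF5 was listed at 0. Over all 7 libraries EHF ranked 8th, SPDEF 15th and ELF3 19th by mean FPKM among the 28 human ETS genes. In tumors Ehf and Elf5 were the most abundant of 26 mouse ETS genes, with means of 129 and 96.6 FPKM over the 6 tumors, and ranked 306th and 444th of all 17328 genes tested. Spdef and Elf3 were lower, with means of 9.23 and 8.79 FPKM. The order of neighbours was not clear everywhere. In the Trim11+/+ tumors the ranges of Ehf and Elf5 overlapped, at 93.6 to 120 FPKM and 90.1 to 110 FPKM. In the Trim11+/- tumors they did not overlap, at 141 to 160 FPKM for Ehf and 90.7 to 102 FPKM for Elf5. Spdef and Elf3 overlapped over the 6 tumors, with Spdef between 1.63 and 23.6 FPKM and Elf3 between 4.79 and 11.6 FPKM.

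SPDEF lies on chromosome 6 of hg19 from 34505579 to 34524110 on the minus strand, and no annotated gene overlaps it. In FPKM, Control stood at 30.3 and the TRIM11-KD lines at 7.20 and 0.675. In the KDM5C-KD lines it was 3.17 and 1.07 FPKM, and in the DKD lines 3.80 and 0.339 FPKM. Control was thus above every knockdown line, and the nearest line, the library labelled TRIM11-KD1, was lower by a factor of 4.21. The mean log2 ratio to Control, taken over the lines without a pseudocount, was -3.78 in TRIM11-KD, -4.04 in KDM5C-KD and -4.74 in DKD. All of these share the single Control library, so a departure of that library and a change in the knockdown lines cannot be told apart.

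The lines of a group were not alike in how far SPDEF was below Control. The level in line 1 was 10.7 times that in line 2 in TRIM11-KD, 2.97 times in KDM5C-KD and 11.2 times in DKD. SPDEF was lowest in both lines with TRIM11-sgRNA2, at 0.675 and 0.339 FPKM, and higher in both lines with TRIM11-sgRNA1, at 7.20 and 3.80 FPKM. Between knockdown groups the differences of SPDEF were smaller than this spread. On the log2(FPKM + 1) scale KDM5C-KD minus DKD was 0.21 (95% interval -1.99 to 2.41), DKD minus TRIM11-KD was -0.55 (-2.75 to 1.65) and KDM5C-KD minus TRIM11-KD was -0.34 (-2.54 to 1.87). These intervals, from the limma fit over the 6 knockdown lines, hold differences of 3-fold in either direction.

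**Figure D1:**
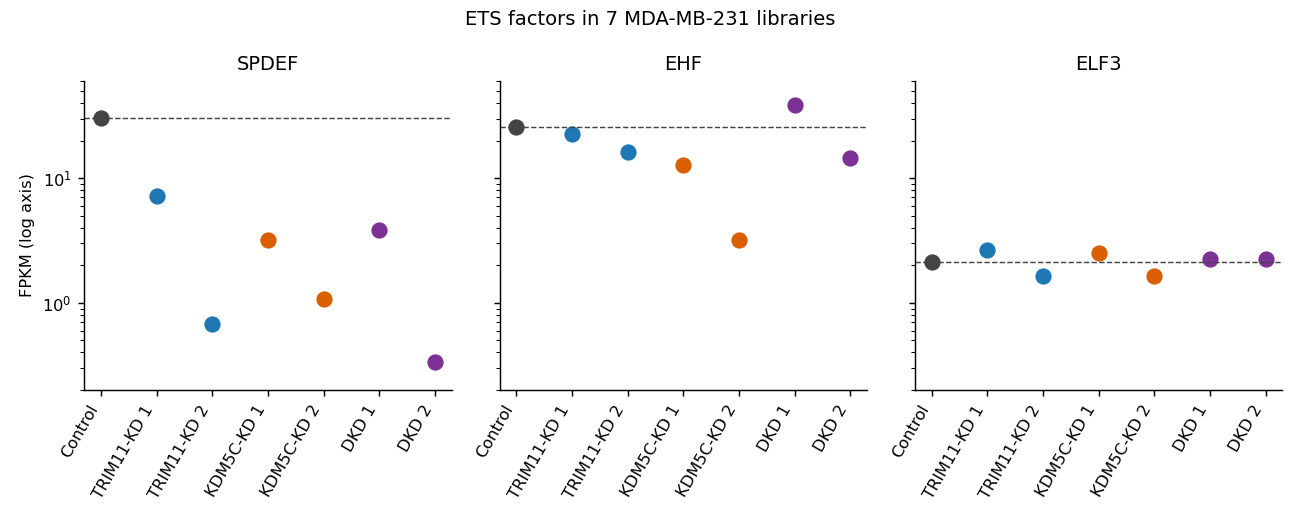
FPKM of SPDEF, EHF and ELF3 in each of the 7 MDA-MB-231 libraries, on a log axis, with 1 point per library, colored by group, and a dashed line at the Control value. SPDEF was below Control in all 6 knockdown lines, EHF was below it in 5 of 6 lines, and ELF3 lay on both sides of it, between 1.63 and 2.64 FPKM. ELF5 is not drawn because it was listed at 0 in 6 of the 7 libraries.

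EHF lies on chromosome 11 of hg19 from 34642640 to 34684835 on the plus strand. Its neighbour is ELF5, from 34500338 to 34546740 on the minus strand, and no protein-coding gene lies in the 95.9 kb between them. EHF was 25.5 FPKM in Control, 22.6 and 16.3 FPKM in the TRIM11-KD lines, 12.8 and 3.20 FPKM in the KDM5C-KD lines, and 38.7 and 14.4 FPKM in the DKD lines. Both KDM5C-KD lines were below the other 5 libraries, and the library labelled DKD1 was above Control while DKD2 was below it. The mean log2 ratio to Control was -0.41 in TRIM11-KD, -2.00 in KDM5C-KD and -0.11 in DKD. Among the 3 lines that carried KDM5C-sgRNA2, EHF was 3.20 FPKM without a TRIM11 guide and 38.7 and 14.4 FPKM with one.

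ELF3, on chromosome 1 from 201977073 to 201986311 of the plus strand, was 2.11 FPKM in Control and between 1.63 and 2.64 FPKM in the knockdown lines. The knockdown lines lay on both sides of Control, and the mean log2 ratio was -0.02 in TRIM11-KD, -0.06 in KDM5C-KD and 0.09 in DKD. An antisense gene, ELF3-AS1, overlaps ELF3, and because the libraries were not stranded the reads of the pair cannot be told apart. ELF5 was listed at 0 in 6 libraries and at 0.0396 FPKM in KDM5C-KD2. It failed the limit of a mean FPKM of at least 0.5, so 3 of the 4 human members were tested.

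A gene was called against Control when every line of the group was at least 1.5 times below it, or every line at least 1.5 times above it. In TRIM11-KD 1 of the 3 members was lower, SPDEF, while 2.58% of all 12636 genes were lower and 3.25% higher. In KDM5C-KD SPDEF and EHF were lower, against 3.97% of all genes lower and 5.22% higher. In DKD only SPDEF of the 3 members was lower, against 4.87% lower and 5.71% higher. Over all 6 knockdown lines 0.91% of genes were lower, SPDEF among them, and 1.16% were higher. SPDEF was chosen in these comparisons, so nothing is read from its calls. When the libraries labelled TRIM11-KD1 and DKD1, in which TRIM11 was not lower, were left out, EHF was also lower in each of the 4 lines that remained, with a mean log2 ratio of -1.37, and 2.33% of all genes were lower by that rule. This alternative was chosen after the values were seen. EHF was also called lower in TRIM11-KD2 alone, at 0.638 of Control, and in DKD2 alone, at 0.563 of Control, while the library labelled DKD1 alone called it higher, at 1.52 times Control.

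To set knockdown groups against each other, limma was run on log2(FPKM + 1) of the 6 knockdown lines, without Control. For EHF, KDM5C-KD minus DKD was -1.70 on the log2 scale (95% interval -3.29 to -0.12). Its unadjusted limma p was 0.0393, and after Benjamini-Hochberg adjustment over all genes the limma p was 0.411, so EHF did not pass the threshold. The difference rests on single lines, since it was -0.84 without KDM5C-KD2, -1.02 without the library labelled DKD1, -2.39 without DKD2 and -2.56 without KDM5C-KD1. In this comparison no gene passed after adjustment (0%), and 1473 of 12636 genes (11.7%) had an unadjusted limma p under 0.05. EHF in KDM5C-KD minus TRIM11-KD was -1.41 (95% interval -3.00 to 0.18, limma adjusted p = 0.512), and between -0.55 without KDM5C-KD2 and -2.27 without KDM5C-KD1. In that comparison 0% of genes passed after adjustment and 1241 genes (9.82%) had an unadjusted p under 0.05. EHF in DKD minus TRIM11-KD was 0.29 (95% interval -1.29 to 1.88, limma adjusted p = 0.931), and -0.39 without the library labelled DKD1 or 0.98 without DKD2. There 0% of genes passed after adjustment and 888 genes (7.03%) had an unadjusted p under 0.05. The differences of ELF3 were -0.09, 0.07 and -0.03 in KDM5C-KD minus DKD, DKD minus TRIM11-KD and KDM5C-KD minus TRIM11-KD, with 95% intervals that reached from -0.67 to 0.64 over the 3 of them.

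Of the 14 secretory and goblet genes tied to SPDEF, 5 averaged at least 0.5 FPKM in the cell lines. AGR2, TFF1 and TFF3 were at least 1.5 times below Control in all 6 knockdown lines, as were 0.91% of all genes, and SPINK4 and CREB3L1 were not called in any comparison. AGR2, a protein disulfide isomerase of secretory cells, was 6.52 FPKM in Control, 2.65 and 0.229 FPKM in TRIM11-KD, 2.54 and 0.463 FPKM in KDM5C-KD, 2.49 FPKM in the library labelled DKD1, and was listed at 0 in DKD2. TFF1, a secreted trefoil peptide, was 13.3 FPKM in Control, 5.86 and 2.91 FPKM in TRIM11-KD, 3.22 and 1.49 FPKM in KDM5C-KD, and 3.87 and 1.76 FPKM in DKD. TFF3, of the same family, was 9.96 FPKM in Control and between 0.123 and 1.33 FPKM in the knockdown lines. For AGR2 and TFF1, as for SPDEF, line 1 of each group was above line 2, while TFF3 in KDM5C-KD was 0.442 and 0.510 FPKM. CREB3L1, a transcription factor of secretory cells, was 52.3 FPKM in Control and between 50.6 and 64.2 FPKM in the lines. SPINK4 was 18.6 FPKM in Control and between 8.59 and 30.4 FPKM in the lines. The median log2 change of the 5 genes on the log2(FPKM + 1) scale was -1.46 in TRIM11-KD, -1.72 in KDM5C-KD and -1.96 in DKD, and that of all genes tested was -0.01 in each. These genes were read from the same libraries in which SPDEF was chosen, and with 1 Control library there is no replicate check.

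**Figure D2:**
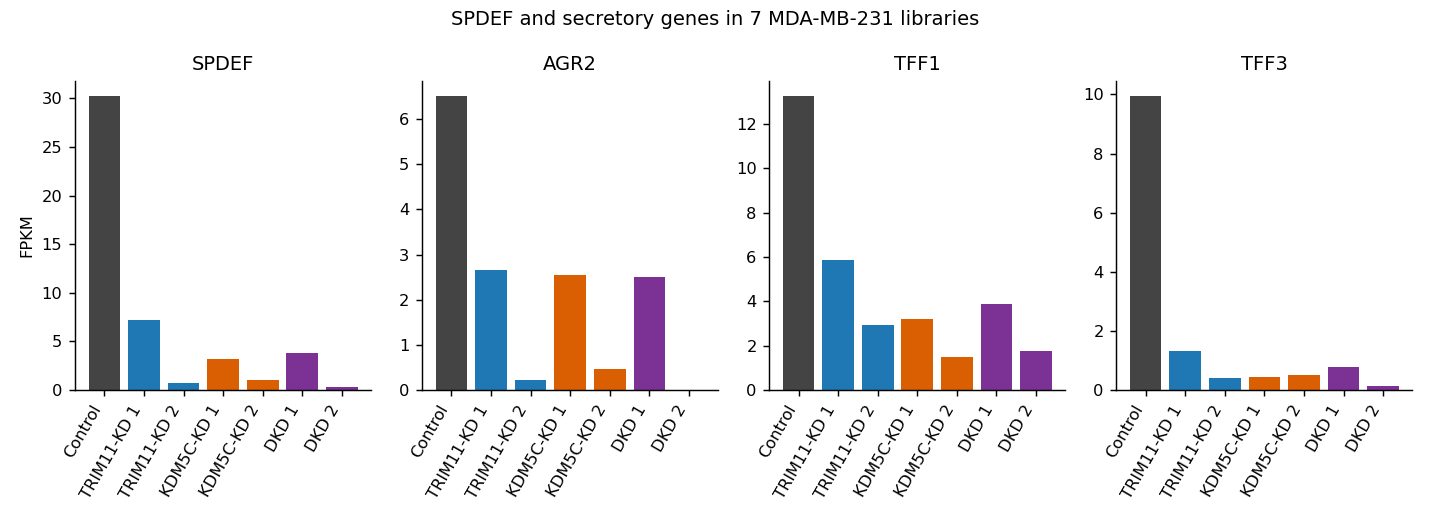
FPKM of SPDEF and of the secretory genes AGR2, TFF1 and TFF3, with 1 bar for each of the 7 MDA-MB-231 libraries and a linear axis from 0 in each panel. Control had the tallest bar for all 4 genes, at 30.3, 6.52, 13.3 and 9.96 FPKM, and DKD2 was at 0.339 FPKM for SPDEF and at 0 for AGR2.

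Promoter sequences are shown for SPDEF and AGR2, whose levels were lowest in the same libraries, and for EHF, the other member below Control in most lines. They are RefSeq sequences of GRCh38.p14 from 250 bases before to 50 bases after the start, on the strand of the gene. Capitals mark each GGAA or GGAT core, searched on both strands. The SPDEF window is chr6:34556280-34556579 on the minus strand, the AGR2 window is chr7:16804950-16805249 on the minus strand, and the EHF window, the first of 2 listed starts, is chr11:34624007-34624306 on the plus strand.
SPDEF: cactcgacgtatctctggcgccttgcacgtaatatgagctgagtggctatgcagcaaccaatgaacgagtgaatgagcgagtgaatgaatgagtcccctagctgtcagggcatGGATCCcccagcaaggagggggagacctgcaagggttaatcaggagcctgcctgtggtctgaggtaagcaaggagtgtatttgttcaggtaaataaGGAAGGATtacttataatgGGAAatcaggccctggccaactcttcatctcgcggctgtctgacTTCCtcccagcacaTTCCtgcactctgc
AGR2: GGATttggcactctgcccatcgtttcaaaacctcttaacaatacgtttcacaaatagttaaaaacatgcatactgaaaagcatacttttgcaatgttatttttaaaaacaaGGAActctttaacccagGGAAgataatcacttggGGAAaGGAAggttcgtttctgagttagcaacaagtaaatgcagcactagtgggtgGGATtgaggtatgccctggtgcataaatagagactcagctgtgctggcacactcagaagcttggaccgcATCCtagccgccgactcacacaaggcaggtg
EHF: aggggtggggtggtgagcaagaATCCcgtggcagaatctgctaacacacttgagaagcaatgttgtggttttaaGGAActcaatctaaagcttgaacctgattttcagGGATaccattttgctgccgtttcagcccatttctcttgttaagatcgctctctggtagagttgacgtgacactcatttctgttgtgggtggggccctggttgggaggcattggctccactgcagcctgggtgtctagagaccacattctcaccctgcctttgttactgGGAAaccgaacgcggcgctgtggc
The SPDEF and AGR2 promoters each held 4 GGAA and 3 GGAT cores, and that of EHF held 2 of each. A GGATCC in the SPDEF promoter counts as 2 GGAT cores because it reads the same on both strands. Of 34796 human promoter windows, 95.5% held at least 1 GGAA and 76.5% at least 1 GGAT, with medians of 3 and 1, so these short cores are in most promoters. The matches are a description of the letters and not of binding.

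Spdef lies on chromosome 17 of mm10 from 27714352 to 27728955 on the minus strand. In the Trim11+/+ tumors its FPKM was 1.63, 2.56 and 6.18, from 41, 60 and 143 reads. In the Trim11+/- tumors it was 13.7, 23.6 and 7.63 FPKM, from 352, 479 and 189 reads. Every Trim11+/- tumor was above every Trim11+/+ tumor, although the closest pair, at 7.63 and 6.18 FPKM, differed little. The means were 15.0 ± 8.08 FPKM (SD, n = 3) and 3.46 ± 2.41 FPKM (SD, n = 3), a ratio of 4.34. In limma on log2(FPKM + 1) over all genes the log2 fold change was 1.85 (95% interval 0.68 to 3.01), with an unadjusted p of 0.00747 and a Benjamini-Hochberg adjusted p of 0.629. The two-sided exact permutation p was 0.1, the smallest that 3 tumors against 3 allow. Spdef therefore met the rule of a 1.5-fold change and an unadjusted p under 0.05, and did not pass after adjustment.

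Ehf, on chromosome 2 from 103263433 to 103303278 of the minus strand, was 120, 93.6 and 104 FPKM in the Trim11+/+ tumors and 154, 160 and 141 FPKM in the Trim11+/- tumors. The genotypes did not overlap, and the ratio of the means was 1.43. The log2 fold change was 0.52 (95% interval 0.23 to 0.81), with an unadjusted limma p of 0.00419 and an adjusted p of 0.593, and the exact permutation p was 0.1. Ehf was not called because its ratio was under 1.5. Without Trim11+/+ replicate 1, the highest of its genotype, Ehf was called with a log2 fold change of 0.61.

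Elf5, the neighbour of Ehf on chromosome 2 from 103411688 to 103450989 of the plus strand, was the steadiest member. Its FPKM was 90.1, 110 and 95.7 in the Trim11+/+ tumors and 90.7, 91.8 and 102 in the Trim11+/- tumors, and the genotypes overlapped. The log2 fold change was -0.05 (95% interval -0.32 to 0.21, limma adjusted p = 0.946), and the exact permutation p was 0.7. Elf3, on chromosome 1 from 135253575 to 135258568 of the minus strand, was 4.79, 8.70 and 10.2 FPKM in the Trim11+/+ tumors and 8.28, 11.6 and 9.15 FPKM in the Trim11+/- tumors. The genotypes of Elf3 overlapped as well, with a log2 fold change of 0.31 (95% interval -0.32 to 0.94, limma adjusted p = 0.834) and an exact permutation p of 0.5. Without Trim11+/+ replicate 1, the lowest tumor, the log2 fold change of Elf3 was 0.027, and without Trim11+/+ replicate 3 it was 0.50. An antisense gene, Gm26642, overlaps Elf3, and the reads of the pair cannot be told apart.

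By the fold and p rule 1 of the 4 members was called, as higher, against 1.74% of all 17328 genes called higher and 1.87% called lower in Trim11+/- tumors. Spdef and Ehf had an unadjusted limma p under 0.05, as did 6.94% of all genes. After adjustment none of the 4 members passed, and 1 gene of all did (0.00577%). Spdef and Ehf were the 2 members that were higher without overlap, as were 6.6% of all genes, and no member was lower without overlap, against 6.78% of all genes. In these bulk tumors fewer cells of a type and less RNA per cell cannot be told apart.

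**Figure D3:**
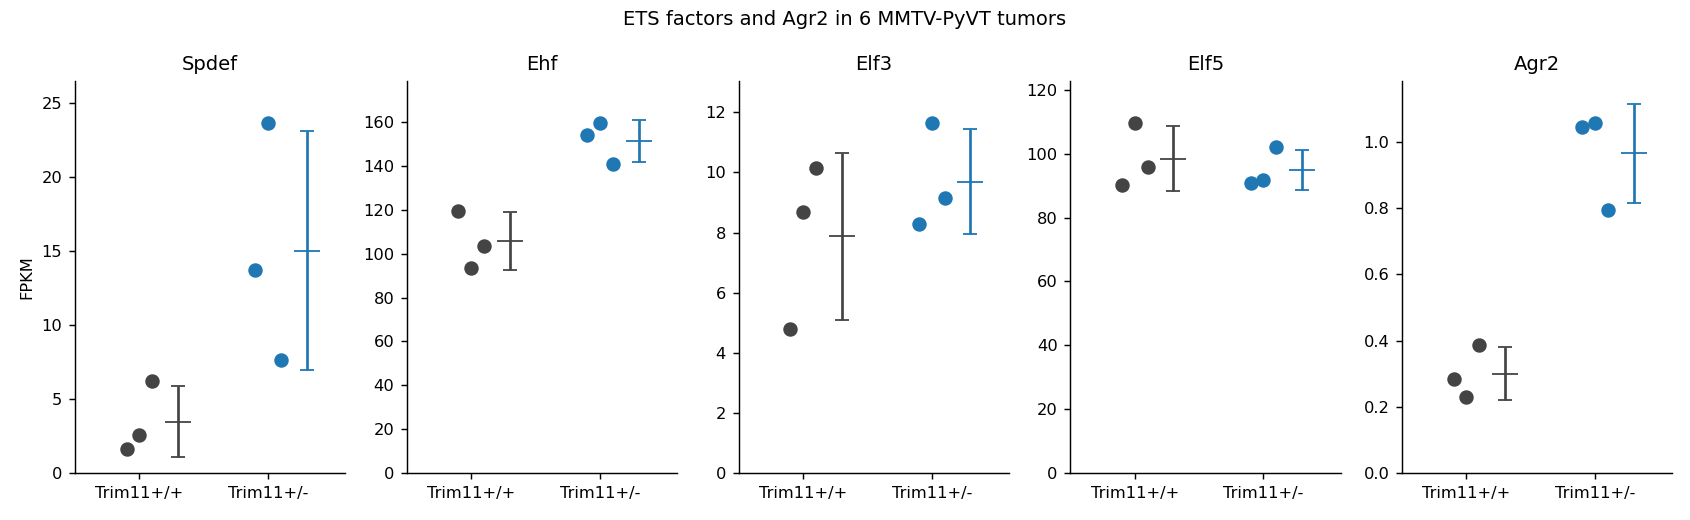
FPKM of Spdef, Ehf, Elf3, Elf5 and the secretory gene Agr2 in the 3 Trim11+/+ and 3 Trim11+/- tumors, with 1 point per tumor, the mean and SD of each genotype beside the points, and axes from 0. Spdef, Ehf and Agr2 did not overlap between the genotypes, and Elf3 and Elf5 did.

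Cell type markers are given beside these values, and only those of basal and myoepithelial cells included called genes. Of 8 markers of basal and myoepithelial cells, 5 were called lower in the Trim11+/- tumors (Krt5, Krt14, Krt17, Trp63 and Oxtr), against 1.87% of all genes, with limma adjusted p between 0.610 and 0.684. Their summed FPKM was between 145 and 354 in the Trim11+/+ tumors and between 68.6 and 100 in the Trim11+/- tumors, without overlap. None of 8 tested luminal markers was called, and their sum was between 1463 and 1749 FPKM in Trim11+/+ and between 1356 and 1896 FPKM in Trim11+/- tumors. Markers of adipocytes, fibroblasts, endothelium, macrophages and skeletal muscle had no called gene, and their summed levels overlapped between the genotypes, as for skeletal muscle at 22.7 to 234 FPKM and 1.82 to 281 FPKM. Of 6 T cell markers 2 were tested and none was called, and no B cell marker reached the limit of 0.5 FPKM. The part of these cell types in the levels of Spdef and Ehf was not tested.

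Of the secretory genes tied to SPDEF, 4 of 14 were tested in tumors and Agr2 was called higher, as were 1.74% of all genes. Agr2 reached the limit of 0.5 FPKM only through the Trim11+/- tumors, with a mean of 0.965 FPKM there and 0.299 FPKM in the Trim11+/+ tumors, so its call is no support for a change of these genes. It had few reads, 4, 3 and 5 in the Trim11+/+ tumors and 15, 12 and 11 in the Trim11+/- tumors. In FPKM these were 0.284, 0.229 and 0.386 against 1.05, 1.06 and 0.793, without overlap. The ratio of the means was 3.22, and the log2 fold change on the log2(FPKM + 1) scale, which understates the change of so low a gene, was 0.60 (limma unadjusted p = 0.00947, adjusted p = 0.634). Tff1, Tff3, Spink4 and Gcnt3 were listed at 0 in all 6 tumors, and Creb3l1 was 13.5 FPKM in Trim11+/- and 16.4 FPKM in Trim11+/+ tumors on average, with overlap.

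The milk genes tied to ELF5 held no called gene among 6 tested, and their log2 fold changes were between -0.94 for Lalba, encoding alpha-lactalbumin, and 0.50 for Csn2, encoding beta-casein. These genes varied more between tumors than Elf5 did. Csn2 was 0.674, 63.8 and 11.9 FPKM in the Trim11+/+ tumors and 55.8, 14.3 and 3.53 FPKM in the Trim11+/- tumors, while Elf5 stayed between 90.1 and 110 FPKM. Of 5 genes of prolactin and STAT5 signaling, which acts beside ELF5 in the gland, Cish, an inhibitor induced by STAT5, was called lower with a log2 fold change of -0.80 (limma adjusted p = 0.673). The share of all genes called lower was 1.87%. Prlr, the prolactin receptor, had a log2 fold change of 0.26. In the cell lines JAK2, the kinase of that receptor, was lower in KDM5C-KD and DKD, against 3.97% and 4.87% of all genes. JAK2 was at 0.812 to 1.09 FPKM in these 4 lines and 1.66 FPKM in Control, and no other of the 4 genes tested was called.

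Most other ETS genes were not called, as holds for most of all genes tested. Of 17 other human ETS genes tested, ETV1 was lower in TRIM11-KD, KDM5C-KD and DKD. The shares of all genes called lower there were 2.58%, 3.97% and 4.87%. ETV1 was 12.0 FPKM in Control, 5.80 and 1.95 FPKM in TRIM11-KD, 3.07 and 3.53 FPKM in KDM5C-KD, and 3.73 and 2.76 FPKM in DKD, so that Control was above all 6 lines as for SPDEF. FLI1 was higher in TRIM11-KD and DKD, against 3.25% and 5.71% of all genes, although its Control value was under the limit of 0.5 FPKM. FLI1 was 0.408 FPKM in Control, 6.06 and 6.04 FPKM in the lines with TRIM11-sgRNA2, 0.869 and 1.37 FPKM in the lines with TRIM11-sgRNA1, and 0.736 and 0.315 FPKM in KDM5C-KD. FLI1 was thus highest in the same pair of lines in which SPDEF was lowest. ERG, FEV, SPI1 and SPIC were listed at 0 in all 7 libraries. The median log2 change of the 17 genes on the log2(FPKM + 1) scale was 0.04 in TRIM11-KD, -0.13 in KDM5C-KD and 0.01 in DKD. In tumors 1 of 18 other ETS genes was called, Spi1, which acts in myeloid cells, as lower (log2 fold change -0.67, limma adjusted p = 0.647). The share of all genes called lower was 1.87%. Elk3 was also lower without overlap, at 6.61 to 6.85 FPKM against 8.06 to 10.4 FPKM, as were 6.78% of all genes. Etv1 had the highest positive log2 fold change of the 18, 0.45, with overlap, and the median of the 18 was -0.01.

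**Figure D4:**
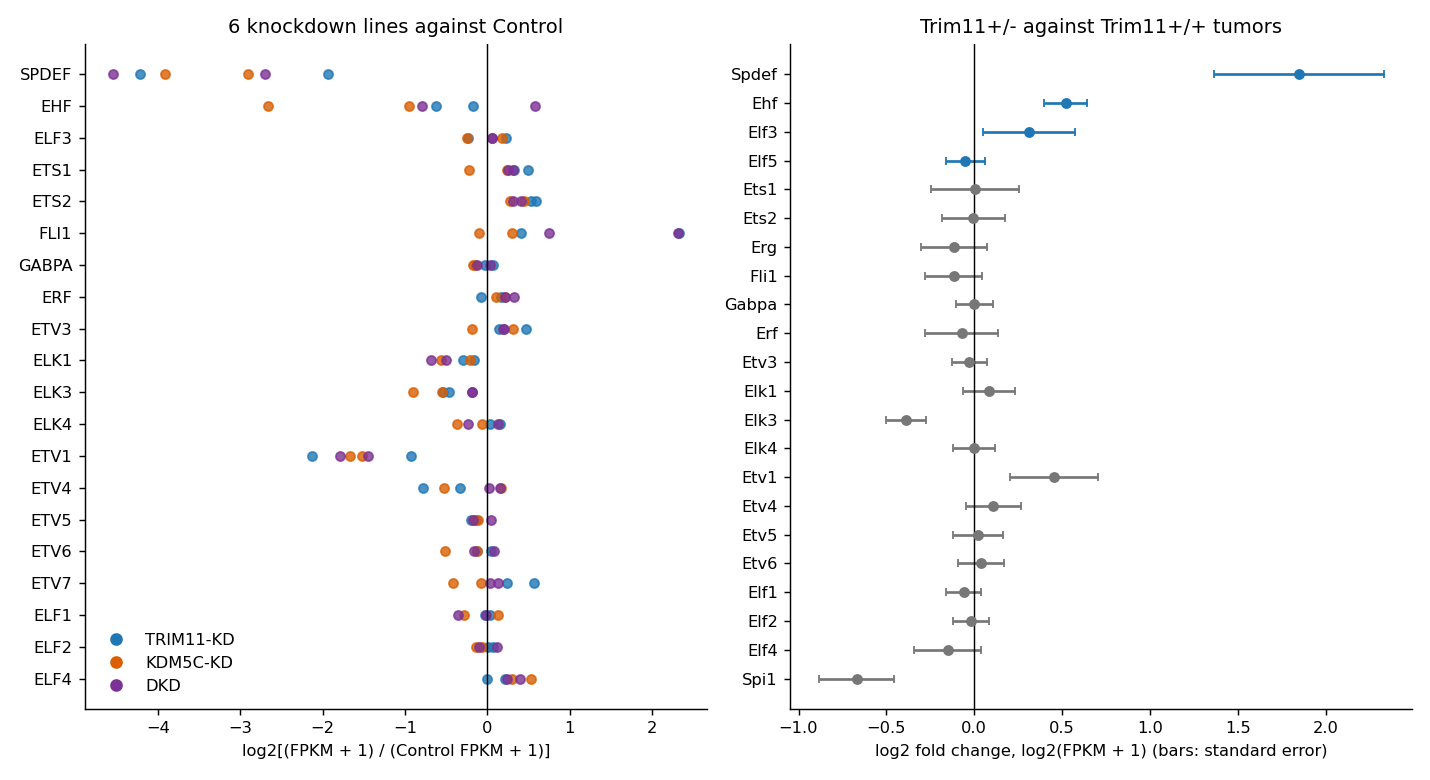
Left, log2 of (FPKM + 1) in each knockdown line over (FPKM + 1) in Control for the 3 members and 17 other ETS genes tested, with 1 point per line colored by group. Right, limma log2 fold changes on log2(FPKM + 1) between Trim11+/- and Trim11+/+ tumors with their standard errors for the 4 members and 18 other ETS genes. By the mean over the 6 lines SPDEF lay farthest to the left and ETV1 next, with FLI1 farthest to the right, and Spdef lay farthest to the right in the tumors at 1.85.

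Genes of epithelial adhesion, a property in which these factors are known to act, were described in both systems. Of 16 tested in the cell lines, 2 were called higher in TRIM11-KD, 6 in KDM5C-KD and 4 in DKD, and 1 was called lower, OCLN in DKD. Of all genes, 3.25%, 5.22% and 5.71% were higher in these comparisons and 4.87% were lower in DKD. CRB3, of an apical polarity complex, was higher in all 6 lines, at 0.176 FPKM in Control and 0.448 to 2.57 FPKM in the lines. It reached the limit of a mean of 0.5 FPKM only through knockdown lines in which it was higher. Its calls, counted in each group above, are therefore no support for a change of these genes. EPCAM, an adhesion molecule of epithelia, was 4.03 FPKM in Control, 10.3 and 12.1 FPKM in KDM5C-KD and 12.3 and 12.0 FPKM in DKD, opposite in direction to SPDEF. In tumors Ovol2, a repressor of mesenchymal genes, was called higher, at 3.35 to 4.47 FPKM in Trim11+/- and 1.73 to 2.75 FPKM in Trim11+/+ tumors. Among mesenchymal genes none of 7 tested was called in the cell lines, and Vim, Snai2 and Fn1 of 8 tested were called lower in Trim11+/- tumors, with all 8 log2 fold changes below 0. Of all genes 1.87% were called lower, and the limma adjusted p was 0.437 for Vim, 0.713 for Snai2 and 0.693 for Fn1.

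The genes whose levels followed each member most closely are given as a description. Over the 7 cell line libraries SPDEF was most like CC2D1A, SLC9A3R2, KATNBL1, LYRM7 and DUSP4, with Pearson r of log2(FPKM + 1) between 0.982 and 0.994. Over 8572 genes the median r was -0.01, and 30 genes had an r above 0.95. Control stood far above the other 6 points in SPDEF, and every pair of genes shares it. The r between SPDEF and EHF was 0.50. Over the 6 tumors Spdef was most like Ppm1b, Arhgap8, Hexim1, Ctns and Dctn5, with r between 0.987 and 0.995. Ehf was most like AW549877, Qpctl, Kdm3a, Gde1 and Rab11fip4, with r between 0.984 and 0.993. Elf3 was most like Ociad2, Gstt3, Retreg1, Lao1 and Zkscan6, and Elf5 was most like Col9a1, Gatad1, Ufl1, Krcc1 and Hacd3. Between members r was 0.78 for Spdef and Ehf, 0.74 for Spdef and Elf3 and -0.60 for the neighbours Elf5 and Ehf, with n = 6 tumors of both genotypes.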

How the data were processed

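RNA-Seq libraries were made from poly(A) RNA with a non-directional kit and sequenced in paired reads. Quality control by the authors used FastQC, adaptors were removed with Cutadapt, and mapping to hg19 or mm10 used HISAT2 2.1.0. The authors computed FPKM with Cufflinks and deposited 1 table of FPKM values per species. The submitters' processing notes also name Bowtie 0.12.2, and the build mm8 beside hg19 and mm10, and the use of Bowtie or mm8 is not given in the sources used here. Tumor reads were inferred from FPKM and exon length, with the commonest smallest value taken as 1 read. By this, 98.7% of tumor values were whole reads (within 0.01 read).

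The row with the highest mean was kept for each symbol, and 25 human symbols turned into dates were dropped. Genes averaging at least 0.5 FPKM were tested on log2(FPKM + 1) by limma 3.58.1 (R 4.3.3, trend), adjusted by the Benjamini-Hochberg method. The limma step was run on simulated data with the same spread for every gene. Lines here differed more than that for some genes, SPDEF among them. That run therefore does not show how well the fit works on such genes. Against the single Control library the fold rule was used without a test. Single tumor values were compared by exact permutation. The lines of a knockdown group differed in a guide, so the spread between them includes differences of guide and of line. The limma fits took such lines as replicates of a group. Nothing says whether libraries of a group came from separate cultures, so part of this spread may also be technical. The tested genes numbered 12636 in human and 17328 in mouse.

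The members and gene lists were chosen with earlier results of these data known. Named are the members, the ETS genes and list genes with the largest and smallest changes or a call, and the 5 genes most like each member by Pearson r among those with a mean FPKM of at least 5. Other list genes named here were picked after their values were seen. Alternatives were other pseudocounts, filters, scalings and folds, no trend, a replicate block, and each library left out. Promoters were matched by symbol, with 4 of 4 human members found. Same-numbered tumors did not deviate together (r -0.33, 0.04 and -0.13), so the numbers were not taken to pair them. A result for 1 listed gene is not reported here.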

Additional observations from a re-analysis of the deposited data

Results flagged for a closer look

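In 3 genes every TRIM11-KD line lay on one side of Control and every Trim11+/- tumor on the opposite side of the Trim11+/+ tumors. The mean log2 ratio of SPDEF to Control was -3.78 in TRIM11-KD, and the log2 fold change of Spdef was 1.85 in the tumors. For EHF the values were -0.41 in TRIM11-KD, where it was not called, and 0.52 for Ehf in the tumors, under 1.5-fold. For AGR2 they were -3.06 in TRIM11-KD and 0.60 for Agr2 in the tumors, the latter on the log2(FPKM + 1) scale. Agr2 had few reads and reached the limit of 0.5 FPKM only through the Trim11+/- tumors. SPDEF was chosen by its values in the cell lines. Nothing is therefore read from the opposite directions of either gene. The differences between cell line and tumor were not tested, since they join 2 species, 2 tables and a comparison with 1 Control library. TRIM11 mRNA was not below Control in the library labelled TRIM11-KD1, at 13.4 against 12.6 FPKM, and was 10.6 FPKM in TRIM11-KD2. Cutting by Cas9 need not lower an mRNA, and the authors checked their knockdown lines by western blotting. These mRNA levels therefore do not settle whether a label is right. No group held the 4 samples needed to look for a sample far from the others.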

How the results depend on the processing

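The single Control library and 2 lines per group limit every cell line value, and the depth of these libraries is unknown. In tumors 1 member was called, and this became 2 without Trim11+/+ replicate 1 and 0 with an adjusted p, the count staying between 1 and 2 over the tumors left out. Against Control the count of members in TRIM11-KD, 1, lay between 1 and 2 with 1 line left out, and that in DKD, 1, was 2 without either line, because EHF then counted. Over all 6 lines it was 1, and 2 without the libraries labelled TRIM11-KD1 and DKD1, an alternative chosen after the data were seen. Leaving out 1 library moved several uncalled log2 differences across 0. Elf5 in tumors lay between -0.11 and 0.027. In KDM5C-KD against DKD, SPDEF lay between -0.71 and 1.13 and ELF3 between -0.31 and 0.12. In DKD against TRIM11-KD, SPDEF lay between -1.69 and 0.60, EHF between -0.39 and 0.98 and ELF3 between -0.16 and 0.30. In KDM5C-KD against TRIM11-KD, SPDEF lay between -1.48 and 0.81 and ELF3 between -0.26 and 0.21. Where a group was left with 1 line, that line was assumed to vary like the others. Spdef was higher under all 12 alternatives to its fit, with log2 fold changes from 1.47 to 2.26 and adjusted p of at least 0.395. With the replicate number as a block (replicate block), Spdef kept a log2 fold change of 1.85 with a limma adjusted p of 0.975, EHF in KDM5C-KD against DKD had a limma adjusted p of 0.237, and no call changed. Same-numbered lines correlated at 0.088 (TRIM11-KD with KDM5C-KD), 0.37 (TRIM11-KD with DKD) and 0.27 (KDM5C-KD with DKD), with 2 pairs each. EHF in DKD against Control, a mean log2 ratio of -0.11, lay between -0.83 and 0.60 with 1 line left out and was 0.06 for the mean of the lines. Elf3 in tumors lay between 0.027 and 0.50, and EHF in KDM5C-KD against DKD between -2.56 and -0.84.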
